A study of Mus musculus with 81 samples.

Results

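The clustered protocadherins are neuronal cell-surface adhesion proteins encoded side by side in the alpha, beta and gamma clusters. They were taken as every protein-coding gene of the Gencode mouse annotation whose symbol starts with Pcdha, with Pcdhb and a digit, or with Pcdhg and the letter a, b or c. The family was chosen with earlier results of these data known, that of Pcdhga2 among them. The rule itself used symbols only and no measured value. It found 59 members among 57010 gene identifiers, 21664 of them protein-coding, with 15 members in the alpha, 22 in the beta and 22 in the gamma cluster. In GRCm39 the beta cluster lies on chromosome 18 from 37397991 to 37657532 and the gamma cluster from 37794846 to 37975014. The alpha members run from 37063237 to 37973253, an end set by Pcdha4b, whose gene model reads through into the gamma cluster. Sequences of the members were not used here.

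Clustered protocadherins have an ectodomain of cadherin repeats. Many, though not all, bind the same isoform on a facing cell surface, which lets sister branches of a neuron recognise and avoid each other. In the alpha and gamma clusters every variable exon has its own promoter and is spliced to constant exons shared by the whole cluster, while beta genes have a single exon and no shared constant part. The alternate isoforms are chosen stochastically in each neuron through promoter DNA methylation, CTCF and cohesin, and the C-type isoforms Pcdhac1, Pcdhac2, Pcdhgc3, Pcdhgc4 and Pcdhgc5 follow other rules, being broadly expressed or tied to a cell type.

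The 81 libraries hold RNA of CA1 pyramidal neurons (CA1 PNs), CA3 PNs and dentate granule cells (DGCs), cut by laser from Nissl-stained hippocampus of mice at 6 MO. Mice were Ts65Dn (Ts), a Down syndrome model trisomic for a stretch of chromosome 16 and for some genes of chromosome 17, or their disomic (2N) controls. Dams received a choline-normal diet (ChN, 1.1 g/kg choline chloride) or a supplemented one (ChP, 5.0 g/kg) through gestation and lactation, and every pup ate the normal diet after weaning. In the order 2N ChN, Ts ChN, 2N ChP and Ts ChP, there were 6, 5, 7 and 9 CA1 PN libraries, 6, 6, 7 and 7 CA3 PN libraries, and 6, 6, 7 and 9 DGC libraries. The 3 populations came from the same mice, apart from a few Ts mice that lack a CA1 or CA3 PN library. Each library pooled groups of captured neurons of 1 mouse. In such bulk samples fewer cells of a type and less RNA per cell cannot be told apart.

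Libraries summed to 358355 to 4744036 expected counts. The median share of the members together was 0.126% for CA1 PNs, 0.115% for CA3 PNs and 0.118% for DGCs. In DGCs that came to 445 to 1864 member counts per library, spread over 51 to 59 members with any count. Reads in the shared exons cannot be assigned to 1 isoform, and 88.6% of alpha and 91.9% of gamma expected counts were fractional (more than 1e-06 from a whole number), against 3.14% of beta counts and 0.784% over all genes. Values of single alpha and gamma members are therefore less certain than cluster sums and than beta members. Levels between genes are compared below as TPM, which is per length, and levels of a gene between libraries as TMM-scaled CPM.

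Some libraries stood apart. In 10 of the 27 CA1 PN libraries the mean log2(CPM + 1) of 7 markers of CA2 neurons was 5.71 to 7.91, against 1.08 to 3.03 in the other 17. They were 2 of 6 2N ChN, 1 of 5 Ts ChN, 3 of 7 2N ChP and 4 of 9 Ts ChP libraries. Of these, the library of mouse 17-21 and that of mouse 16-272 also lacked CA1 markers (means of 2.22 and 2.19). That of mouse 17-154 is labelled 2N but had its triplicated genes at 6.06, within the Ts range of 5.83 to 6.12. The main CA1 PN values over all libraries are therefore followed by values without these 10, of which the 2N ChN group holds 2. Mouse 15-145 carries a Ts label on its CA3 PN library and a 2N label on the others. This library was taken as 2N, its triplicated genes being at 5.70 against 6.04 or more in Ts. In the CA3 PN library of mouse 15-140 the dentate markers averaged 4.61, against 2.19 or less in the others. Of 34 triplicated chromosome 16 genes tested, 21 to 33 were higher in Ts in each of the 6 genotype comparisons, with a median log2 fold change of 0.49 to 0.60.

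Pcdhgc5 and Pcdhac2, both C-type isoforms, led their clusters in all populations. Per length, Pcdhgc5 was the most abundant member in 2N ChN libraries, with medians of 54.9 TPM (CA1 PNs), 72.1 TPM (CA3 PNs) and 50.8 TPM (DGCs). Its libraries ranged widely, from 28.1 to 64.2 TPM, from 24.6 to 136 TPM and from 32.5 to 76.6 TPM in the same order, so the 3 populations overlapped. Its CA1 PN median was 50.5 TPM (28.1 to 62.7, n = 4) without the CA2 marker libraries. Pcdhac2, the C-type isoform at the end of the alpha array, came next in CA1 PNs at 16.7 TPM (8.12 to 20.7) and in CA3 PNs at 38.0 TPM (11.7 to 44.8). In DGCs Pcdhac2 was at 11.6 TPM (7.06 to 15.4), below Pcdhgc3 at 14.6 TPM (8.30 to 21.1). Pcdhgc3, the C-type isoform found broadly outside neurons too, was at 6.46 TPM in CA1 PNs and 13.8 TPM in CA3 PNs. In CA1 PNs without the CA2 marker libraries Pcdhac2 was at 14.1 TPM (8.12 to 19.5) and Pcdhgc3 at 4.255 TPM. The other C-type members were low, with Pcdhac1 at 1.25 to 2.87 TPM and Pcdhgc4, an isoform tied to neuronal survival, at 1.68 to 2.61 TPM.

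Alternate isoforms, of which each neuron is known to use only some, were each at a few TPM in these pooled cells. For 2N ChN CA1 PNs, CA3 PNs and DGCs, the median alternate isoform of the alpha cluster was at 1.39, 2.22 and 2.31 TPM and that of the gamma cluster at 4.32, 4.34 and 5.96 TPM. The median beta member was at 2.32, 2.03 and 2.99 TPM. These CA1 PN medians were 1.355, 4.42 and 2.73 TPM without the CA2 marker libraries. By the median of 2N ChN libraries, the leading beta members were Pcdhb2 at 8.05 TPM and Pcdhb17 at 4.57 TPM in CA1 PNs, Pcdhb17 at 5.35 and Pcdhb9 at 4.02 in CA3 PNs, and Pcdhb9 at 9.91 and Pcdhb16 at 8.57 in DGCs. Pcdhb2 spanned 0.38 to 12.84 TPM in 2N ChN CA1 PNs and 7.63 to 12.84 TPM without the CA2 marker libraries (median 8.74), and over all 27 CA1 PN libraries Pcdhb17 (median 4.12 TPM) was above Pcdhb2 (3.47). Apart from Pcdhac2, the alpha members with the highest TPM were Pcdha12 in CA1 and CA3 PNs (3.79 and 5.66) and the readthrough gene Pcdha4b in DGCs (5.24). Among gamma members, Pcdhga2 followed Pcdhgc5 in 2N ChN CA1 PNs at 8.83 TPM, or 11.8 TPM without the CA2 marker libraries. At the other end, Pcdhb1 had a median of 0 TPM in both pyramidal populations and 0.16 TPM in DGCs and was too low to be tested for genotype within a population.

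**Figure D1:**
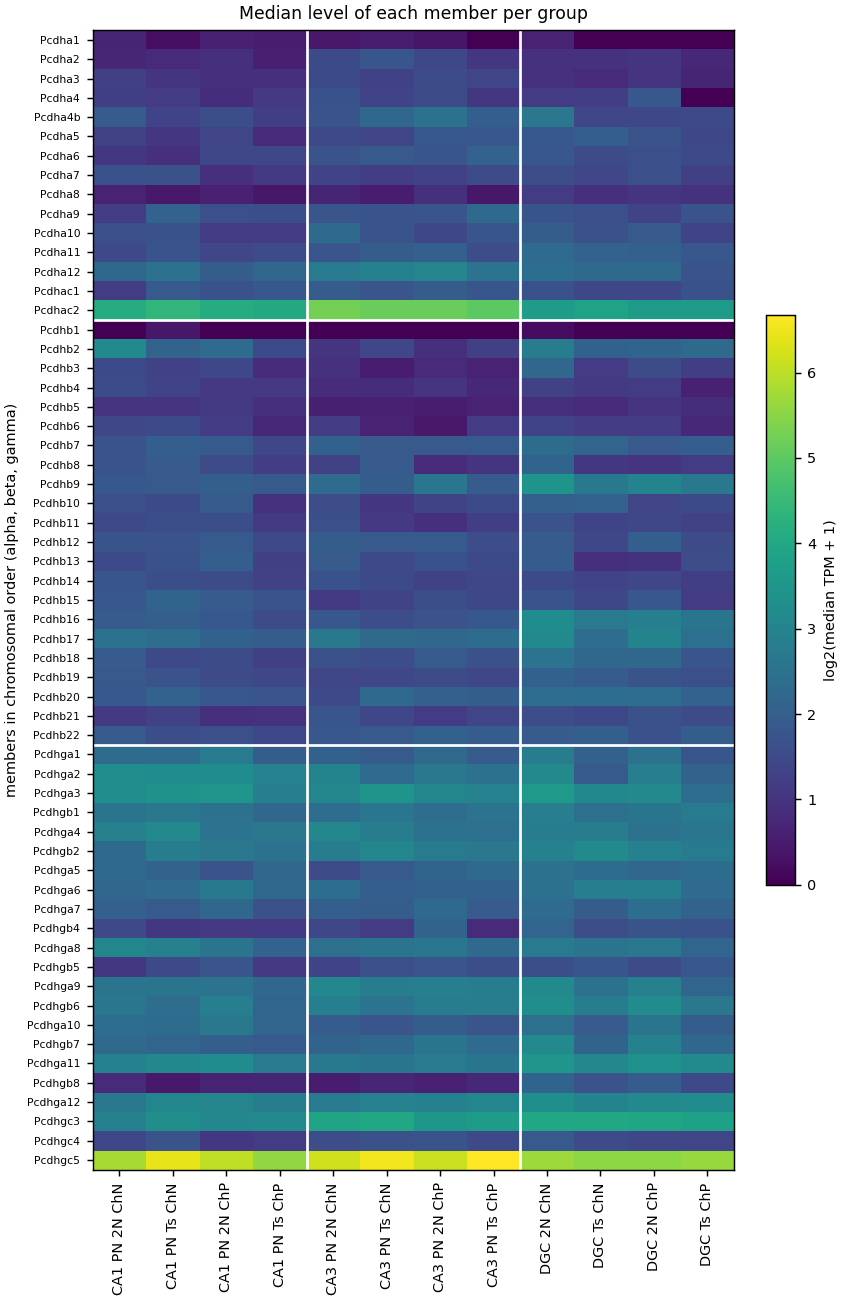
Level of each of the 59 clustered protocadherins in each of the 12 groups of population, genotype and diet, as log2(median TPM + 1) on the colour scale, with members in chromosomal order. Pcdhgc5 and Pcdhac2 stand out in every population (54.9, 72.1 and 50.8 TPM, and 16.7, 38.0 and 11.6 TPM in CA1 PNs, CA3 PNs and DGCs of 2N ChN mice), while beta members are at most 9.91 TPM.

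Within the alpha and gamma clusters, Pcdhac2 and Pcdhgc5 took a smaller share of counts in DGCs. Such shares depend on how reads of the shared exons were divided between genes. Pcdhac2 held 43.8% ± 4.20 (SD, n = 6) of alpha counts in 2N ChN CA1 PNs, against 53.2% ± 4.19 for CA3 PNs and 29.9% ± 4.64 for DGCs. Its DGC libraries, from 20.9 to 33.1%, lay below every CA1 PN library (39.1% or more) and every CA3 PN library (47.1% or more). Pcdhgc5 held 33.2% ± 5.88, 36.5% ± 2.61 and 24.2% ± 4.63 of gamma counts, with DGC libraries from 17.3 to 30.5% below the CA3 PN range of 32.2 to 39.2% and overlapping the CA1 PN range of 23.1 to 39.9%. With the CA2 marker libraries left out, the CA1 PN shares were 42.5% ± 3.71 for Pcdhac2 and 32.4% ± 7.41 for Pcdhgc5 (n = 4).

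Cluster sums were compared between populations in 2N ChN libraries. By CPM, the alpha sum was 345 CPM ± 29.8 (SD, n = 6) in CA3 PNs, 249 CPM ± 26.4 in CA1 PNs and 194 CPM ± 5.63 in DGCs, and these 3 ranges (311 to 384, 211 to 278 and 186 to 200 CPM) did not overlap. The beta sum was lowest in CA3 PNs, at 184 CPM ± 22.7 (142 to 202), against 287 CPM ± 23.1 (248 to 319) in DGCs with no overlap. In CA1 PNs the beta sum of 270 CPM ± 77.8 spanned 156 to 347 CPM, and its 2 lowest values, 156 and 191 CPM, were those of the libraries with CA2 markers. Without them the CA1 PN beta sum was 318 CPM ± 23.9 (295 to 347, n = 4) and the alpha sum 235 CPM ± 20.3 (211 to 259). The gamma sum was 823 CPM ± 78.7 in CA1 PNs, 724 CPM ± 31.8 in CA3 PNs and 715 CPM ± 62.5 in DGCs, with overlapping ranges. The CA1 PN gamma sum without the CA2 marker libraries was 869 CPM ± 45.1 (805 to 910), above every CA3 PN library (679 to 763) and every DGC library (647 to 798). On the deposited TPM scale the order of CA1 PNs and DGCs turned for alpha (log2 difference of -0.18) and gamma (-0.33) and for gamma also that of CA1 and CA3 PNs (-0.20) and of CA3 PNs and DGCs (-0.13, against 0.02 by CPM). That scale moved the median of all genes by -0.43 for CA1 PNs minus DGCs, -0.25 for CA1 minus CA3 PNs and -0.20 for CA3 PNs minus DGCs.

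**Figure D2:**
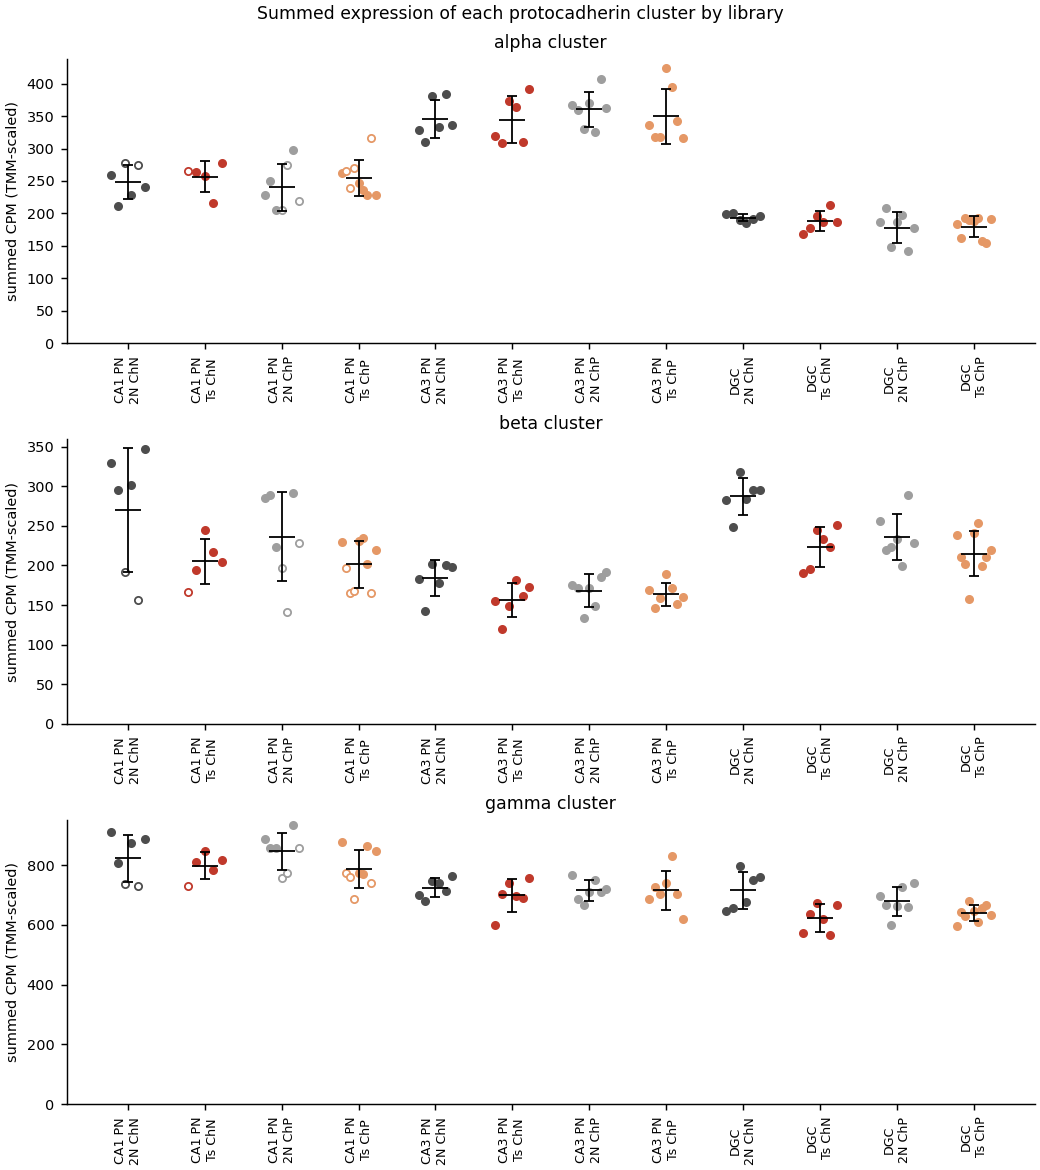
Summed CPM of the alpha, beta and gamma members (1 panel each) in every library of the 12 groups of population, genotype and diet, with bars at the mean and SD and open points for the 10 CA1 PN libraries with CA2 markers. The DGC beta sums of Ts ChN mice (191 to 252 CPM) sit largely below those of 2N ChN mice (248 to 319 CPM), and the open points hold low CA1 PN beta sums.

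**Figure D3:**
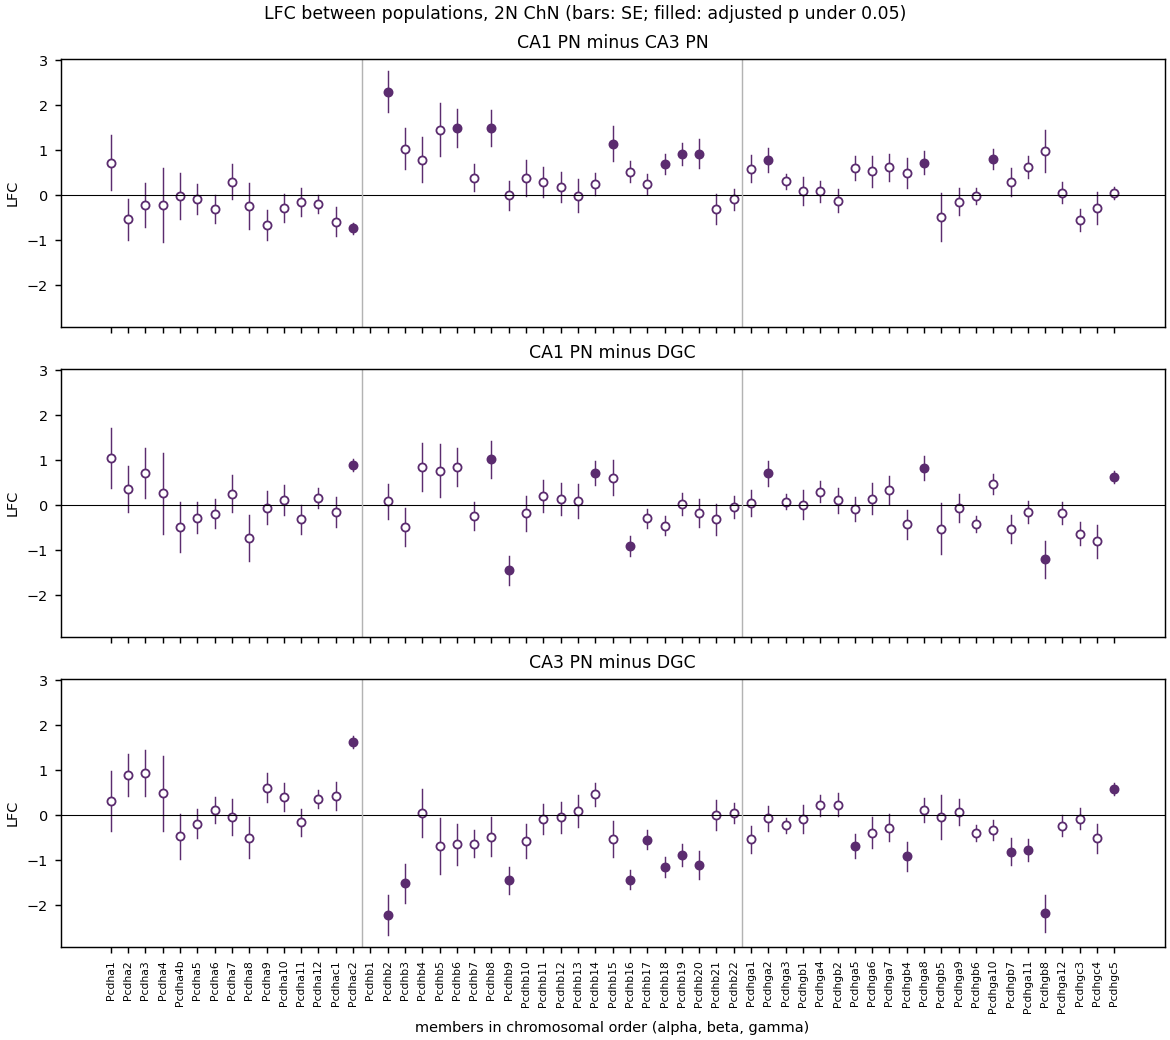
Log2 fold change of each member between populations in 2N ChN libraries (1 panel per pair; bars are SE, filled points have an adjusted p under 0.05). Pcdhac2 is the filled alpha member of each panel, and CA3 PNs minus DGCs holds 13 filled points below 0, of which 8 are beta members.

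Between populations, log2 fold changes (LFC ± SE) were tested in 2N ChN libraries over all genes, with an adjusted p under 0.05 as the call. CA3 PNs and DGCs differed in 15 of 58 members tested (2 higher and 13 lower in CA3 PNs), or 25.9% where 43.7% of all genes were called. CA1 and CA3 PNs differed in 11 of 58 (10 higher and 1 lower in CA1 PNs), or 19.0% against 23.3% of all genes. For CA1 PNs and DGCs it was 9 of 58 (6 higher, 3 lower), or 15.5% against 34.3%. With all libraries the share of members called was thus below that of all genes in each pair. Without the CA2 marker libraries the 3 counts were 15 (25.9%, against 47.8% of all genes), 19 (32.8%, against 28.0%) and 14 (24.1%, against 32.3%), so that for CA1 and CA3 PNs the share of members was then above that of all genes.

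With all libraries Pcdhac2 was the member with the smallest adjusted p in each pair. Its level was 146, 194 and 201 CPM (lowest, median and highest of 6 libraries) in CA3 PNs, 87.0, 112 and 139 in CA1 PNs and 41.6, 59.9 and 66.3 in DGCs, with no overlap between any of the 3. Its LFC was 1.63 ± 0.13 for CA3 PNs minus DGCs (adjusted p = 4.47e-13), 0.89 ± 0.13 for CA1 PNs minus DGCs (1.20e-06) and -0.73 ± 0.12 for CA1 minus CA3 PNs (1.68e-05). Without the CA2 marker libraries the CA1 PN differences were 0.76 ± 0.13 (adjusted p = 2.40e-06) and -0.88 ± 0.12 (9.43e-09), and the smallest adjusted p was that of Pcdhga2 against DGCs (LFC 1.08 ± 0.19, 1.29e-06) and of Pcdhb2 against CA3 PNs. Pcdhgc5 was also higher in both pyramidal populations than in DGCs, by an LFC of 0.63 ± 0.14 in CA1 PNs (adjusted p = 0.000521) and 0.58 ± 0.14 in CA3 PNs (0.000820). The CA1 PN difference was 0.69 ± 0.18 (adjusted p = 0.00675) without the CA2 marker libraries. The other C-type members, Pcdhgc3, Pcdhgc4 and Pcdhac1, did not pass in any pair in this fit. Pcdhgc3 was at an LFC of -0.56 ± 0.25 for CA1 minus CA3 PNs (adjusted p = 0.119), at -0.64 ± 0.19 (0.0140) with the mouse as a block, and at -1.12 ± 0.20 (3.46e-06) once the CA2 marker libraries were left out.

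Among beta members, Pcdhb2 marked CA1 PNs and DGCs off from CA3 PNs. It was at 1.63, 2.72 and 5.13 CPM (lowest, median, highest) in CA3 PNs, 6.48, 13.2 and 20.5 in DGCs, and 1.15, 21.0 and 24.5 in CA1 PNs, where its 2 low values, 1.15 and 4.93 CPM, belonged to the CA2 marker libraries. Its LFC was 2.30 ± 0.45 for CA1 minus CA3 PNs (adjusted p = 0.000302) and -2.21 ± 0.45 for CA3 PNs minus DGCs (0.000201), and without the CA2 marker libraries 2.81 ± 0.34 for CA1 minus CA3 PNs (9.00e-11). Pcdhb8 and Pcdhb19 were higher in CA1 than in CA3 PNs as well (LFC 1.49 ± 0.39 and 0.92 ± 0.24, and 1.90 ± 0.38 and 1.08 ± 0.26 without those libraries). In DGCs, Pcdhb16 was at 34.6, 38.2 and 49.2 CPM against 10.05, 14.7 and 19.5 in CA3 PNs (LFC -1.43 ± 0.21 for CA3 PNs minus DGCs, adjusted p = 7.23e-07). Pcdhb9 (-1.45 ± 0.29), Pcdhb18 (-1.15 ± 0.22) and the gamma member Pcdhgb8 (-2.18 ± 0.42, adjusted p = 4.96e-05) had the same direction.

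Genotype was the main comparison of the study, and with all libraries DGCs held the highest count of members called. Without the CA2 marker libraries CA1 PNs held more, with 18 against 16 in DGCs on the normal diet and 23 against 18 over both diets. A gene counts as a DEG where its unadjusted p was under 0.05. An adjusted p is printed beside some of those described, not beside all. On the normal diet 16 of 55 members tested were DEGs, all lower in Ts DGCs. That is 29.1%, where 8.50% of all genes were DEGs and 3.96% were lower DEGs. Of the 16, 3 had an adjusted p under 0.05, where 0.588% of all genes did. The median LFC was -0.29 over members and 0.0026 over all genes tested. By cluster, 1 of 12 alpha, 5 of 21 beta and 10 of 22 gamma members were lower. Leaving out 1 library gave 9 to 15 DEGs, with 9 without the Ts library of mouse 16-490 and 10 without the 2N library of mouse 17-56.

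Pcdhga2, an alternate gamma isoform, had the smallest p. Its level was 16.7, 30.0 and 42.6 CPM (lowest, median and highest, n = 6) in 2N DGCs and 9.61, 12.3 and 14.1 CPM in Ts DGCs (n = 6). Every Ts library was below every 2N library, and Pcdhga2 fell by 1.33 ± 0.21 on the log2 scale (adjusted p = 4.03e-05). The call held when any 1 of the 12 libraries was left out (adjusted p from 8.62e-06 to 0.000922).

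The 2 beta members called after adjustment, Pcdhb2 and Pcdhb3, had medians of 5.985 and 3.595 TPM in 2N ChN DGCs, against 2.99 TPM for the median beta member. Their values were still low, at 22.8 CPM or less in these libraries. Pcdhb3 was at 5.12, 11.3 and 22.8 CPM in 2N and 3.39, 4.47 and 6.25 CPM in Ts DGCs (LFC -1.35 ± 0.34, adjusted p = 0.0421), and Pcdhb2 at 6.48, 13.2 and 20.5 CPM and 3.91, 6.51 and 9.74 CPM (LFC -1.17 ± 0.30, adjusted p = 0.0430). The 2 groups overlapped for both genes. These calls rested on the full set, since Pcdhb3 kept an adjusted p under 0.05 in 4 of 12 and Pcdhb2 in 2 of 12 fits that left out a library. Just outside the threshold, Pcdhga9 was at 22.8, 27.6 and 40.7 CPM in 2N and 12.1, 18.8 and 28.9 CPM in Ts DGCs (LFC -0.77 ± 0.20, adjusted p = 0.0537).

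The other lower DEGs were Pcdha4b, Pcdhb9, Pcdhb12, Pcdhb16, Pcdhga1, Pcdhga3, Pcdhga10, Pcdhgb4, Pcdhgb6, Pcdhgb7, Pcdhgb8 and Pcdhgc4, with LFC from -1.17 to -0.41 and adjusted p from 0.161 to 0.5683. Pcdhgc4 was the single C-type member among them (8.69 CPM median in 2N and 6.64 in Ts, LFC -0.70 ± 0.32, adjusted p = 0.551). The remaining C-type members did not pass. Pcdhgc5 had a median of 169 CPM in 2N (114 to 229) and 168 in Ts (121 to 215; LFC -0.01), and Pcdhac2 of 59.9 (41.6 to 66.3) and 64.7 (60.2 to 72.3; LFC 0.17 ± 0.12, adjusted p = 0.784). Pcdhgc3 and Pcdhac1 had LFC of 0.15 ± 0.14 and 0.31 ± 0.30.

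Sums were taken over alternate and C-type isoforms apart. Within alpha and gamma this split rests on how reads of the shared exons were divided between genes. It is therefore less certain than the whole cluster sums. The summed alternate gamma isoforms were 476 CPM ± 46.5 (SD, n = 6; 436 to 537) in 2N and 384 CPM ± 27.002 (335 to 419) in Ts DGCs, with no overlap, while the 3 C-type gamma members summed to 239 CPM ± 45.3 and 239 CPM ± 35.5. The beta sum was 287 CPM ± 23.1 (248 to 319) and 223 CPM ± 25.4 (191 to 252), with a small overlap. The whole gamma sum was 715 CPM ± 62.5 (647 to 798) and 623 CPM ± 45.4 (567 to 673), and the alpha sum 194 CPM ± 5.63 and 188 CPM ± 15.4, which overlapped. Pcdhac2 took 35.1% ± 2.97 of alpha counts in Ts and 29.9% ± 4.64 in 2N DGCs. The beta and gamma sums were lower in Ts on every scale tried, and the alpha sum, at -0.04, was 0.01 without the readthrough gene.

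On the supplemented diet, with other mice (7 2N and 9 Ts), 14 of 56 members tested were DEGs in DGCs, 11 lower and 3 higher in Ts. That is 25.0%, against 7.60% of all genes, and 19.6% lower against 3.65%, and it was 9 members without the 2N library of mouse 15-269. Pcdhga9 alone had an adjusted p under 0.05, which 0.445% of all genes had. Its level was 16.6, 27.01 and 36.5 CPM in 2N and 8.17, 11.2 and 28.3 CPM in Ts, so the groups overlapped through 1 Ts library at 28.3 CPM with the rest at 18.3 or less (LFC -0.91 ± 0.22, adjusted p = 0.0194, under 0.05 in 13 of 16 fits that left out a library). Pcdhga2 was at 21.3, 27.1 and 47.0 CPM in 2N and 3.95, 14.6 and 28.1 CPM in Ts (LFC -0.70 ± 0.21, adjusted p = 0.146). The beta members called on the normal diet were at an LFC of -0.14 (Pcdhb2) and -0.62 ± 0.36 (Pcdhb3, adjusted p = 0.759).

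The members lower on both diets were Pcdhb12, Pcdhga1, Pcdhga2, Pcdhga3, Pcdhga9, Pcdhga10, Pcdhgb6 and Pcdhgb7. These 8 were 50% of the 16 lower on the normal diet and 72.7% of the 11 lower on the supplemented diet, and the diets share no mice. The share of all genes lower on both diets is not given, so whether these shares are high is not shown. Higher DEGs in Ts ChP DGCs were Pcdhac2 (0.28 ± 0.13, adjusted p = 0.539), Pcdhb22 and Pcdhgb5. Pcdhac2 was at 30.9, 59.5 and 69.7 CPM in 2N and 55.9, 73.2 and 94.1 CPM in Ts, and its share of alpha counts was 32.2% ± 5.67 (n = 7) and 40.1% ± 5.35 (n = 9). Alternate gamma isoforms, a split with the same limit as on the normal diet, summed to 427 CPM ± 31.8 in 2N and 370 CPM ± 20.0 in Ts, with overlap. The beta sum (236 CPM ± 28.9 and 215 CPM ± 28.2) overlapped over most of its range.

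Averaged over both diets in a fit of all 28 DGC libraries, 18 of 58 members were DEGs, 15 lower and 3 higher in Ts. That is 31.0%, against 10.5% of all genes, and 4.22% of all genes were lower. An adjusted p under 0.05, found in 1.32% of all genes, was found in 6 members, all lower: Pcdhga2 (LFC -1.01 ± 0.15, adjusted p = 5.82e-07), Pcdhga9 (-0.83 ± 0.15, 4.81e-05), Pcdhga3 (-0.58 ± 0.12, 0.00206), Pcdhga10 (-0.75 ± 0.18, 0.0116), Pcdhb3 (-0.98 ± 0.25, 0.0171) and Pcdhgb6 (-0.45 ± 0.13, 0.0355). Of these, 5 are alternate gamma isoforms and 1 is a beta gene. This average was added after the single-diet results had been seen.

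Other cell markers differed in DGCs too. Granule cell markers averaged 8.29 to 8.49 in 2N ChN and 8.34 to 8.51 in Ts ChN libraries on the log2(CPM + 1) scale, so their ranges coincided. Single granule cell markers were DEGs in both directions, none with an adjusted p under 0.05. C1ql2 was higher in Ts on the normal diet (0.58 ± 0.25). On the supplemented diet Pdzd2 (-0.35 ± 0.14) and Dsp (-0.21 ± 0.08) were lower and Stxbp6 (0.14 ± 0.07) was higher. Over both diets Prox1 (-0.09 ± 0.04), Pdzd2 (-0.36 ± 0.11) and Dsp (-0.16 ± 0.07) were lower. The 6 astrocyte markers had a median library mean of 3.78 (3.59 to 3.87) in 2N ChN and 4.14 (3.76 to 4.32) in Ts ChN, and of 3.78 and 4.23 on the supplemented diet, with none at 0. Of them 2 and 1 were higher DEGs, and of 5 inhibitory neuron markers tested 0 and 3. Of the marker genes, those with an adjusted p under 0.05 on the normal diet were Pcp4 (LFC 0.84 ± 0.11), Rgs14 (0.56 ± 0.14) and Neurod2 (-0.30 ± 0.07). Pcp4 and Rgs14 are CA2 markers, Pcp4 being itself one of the chromosome 16 genes trisomic in Ts mice, and Neurod2 is an excitatory neuron marker. On the supplemented diet they were Pcp4, the inhibitory neuron marker Gad2 (1.02 ± 0.20) and the CA1 marker Pou3f1 (-2.95 ± 0.62). Over both diets the microglia marker Csf1r (0.83 ± 0.22) and the CA1 marker Fibcd1 (-0.77 ± 0.16) were added to Pcp4, Rgs14, Neurod2 and Pou3f1 (-3.84 ± 0.54). Their part in the protocadherin differences was not tested.

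**Figure D4:**
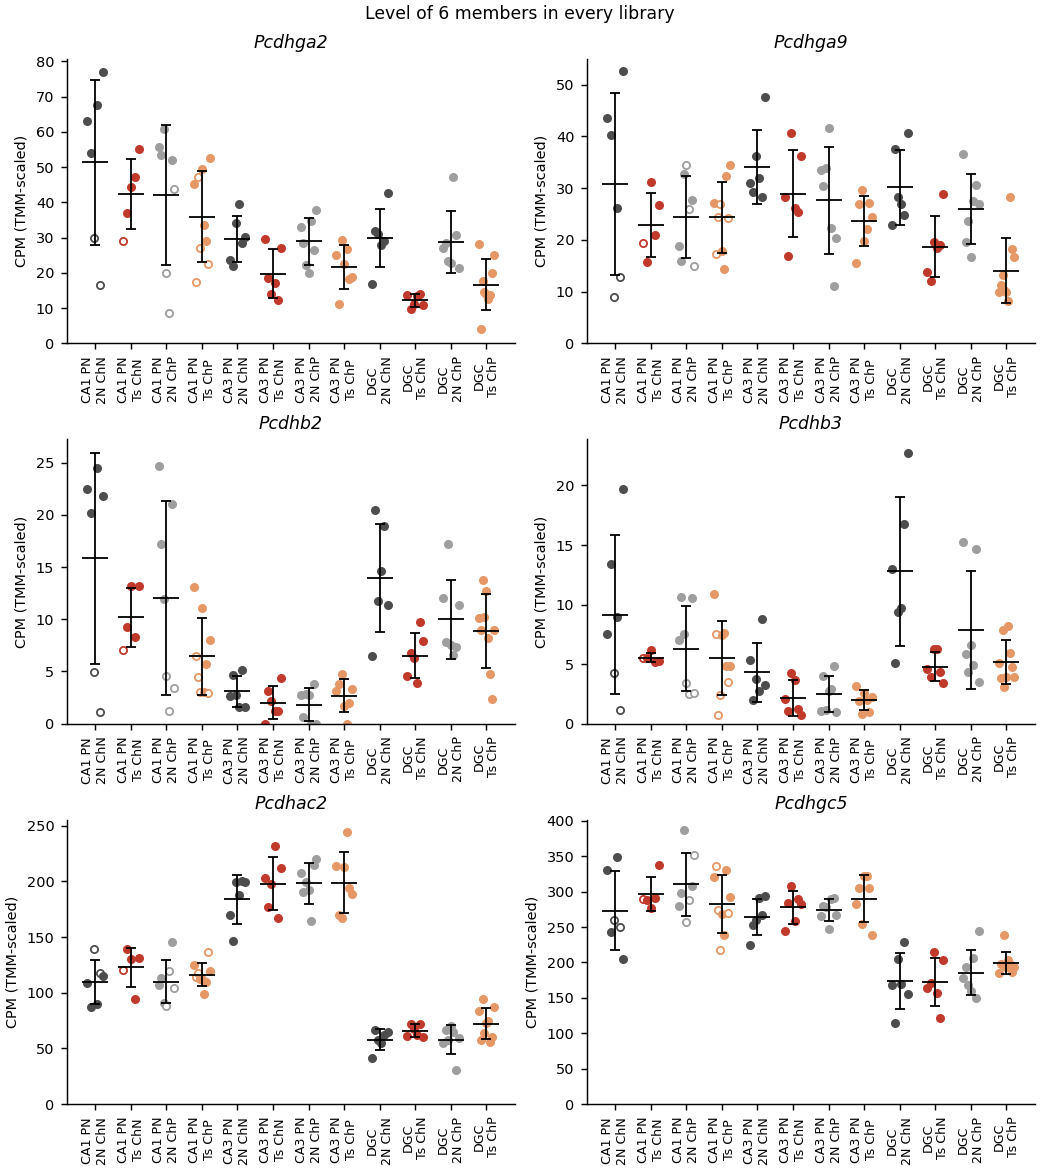
CPM of 6 members in every library by population, genotype and diet (points are libraries, open points the 10 CA1 PN libraries with CA2 markers, bars the mean and SD). In DGCs on the normal diet Pcdhga2 is at 9.61 to 14.1 CPM in all 6 Ts libraries and at 16.7 CPM or more in 2N, while Pcdhgc5 ranges overlap (114 to 229 and 121 to 215 CPM).

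In CA1 PNs the genotype result depended on which libraries were used. With all libraries on the normal diet 4 of 55 members tested were DEGs, or 7.27% against 3.77% of all genes, and none had an adjusted p under 0.05 by edgeR, as 0.00814% of all genes did. Their directions were mixed. Pcdhac1 was at 5.21, 8.50 and 15.0 CPM in 2N and at 10.5, 15.7, 17.4, 17.8 and 19.3 CPM in the 5 Ts libraries (LFC 0.74 ± 0.30), and Pcdha9 was higher too (0.79 ± 0.30). Pcdhb18 (-0.64 ± 0.26) and Pcdhgb8 (-1.45 ± 0.58) were lower. The median LFC over members was -0.28, against -0.011 over all genes.

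The CA2 marker libraries differed from the other CA1 PN libraries in several members. Over both genotypes and diets the beta sum was 177 CPM ± 25.5 (SD, n = 10) in them and 255 CPM ± 47.2 in the other 17, and Pcdhb2 was at 1.15, 3.94 and 7.08 CPM (lowest, median and highest) against 3.05, 13.2 and 24.7. Pcdhga2 was at 8.73, 24.8 and 47.2 CPM against 29.0, 52.5 and 77.0. Pcdhgc3 went the other way, at 42.5, 51.3 and 74.9 CPM against 12.7, 35.0 and 51.0.

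Without those 10 libraries, which left 4 2N and 4 Ts libraries on the normal diet, 18 of the same 55 members were DEGs, 14 lower and 4 higher in Ts. That is 32.7%, against 6.98% of all genes, and 25.5% lower against 3.66%, and none had an adjusted p under 0.05. Of the 14 lower, 9 are beta and 5 gamma members. Pcdhb2 was at 20.1, 21.8, 22.5 and 24.5 CPM in 2N and 8.30, 9.22, 13.2 and 13.2 CPM in Ts (LFC -1.03 ± 0.28, adjusted p = 0.180), and Pcdhb3 at 7.51, 8.92, 13.4 and 19.7 CPM and 5.19, 5.28, 5.53 and 6.15 CPM (-1.18 ± 0.39, 0.388). Neither gene's groups overlapped. Pcdhga2 was at 53.9, 63.0, 67.7 and 77.0 CPM in 2N and 36.9, 44.2, 47.1 and 55.1 CPM in Ts, which overlapped by 1 library each (LFC -0.54 ± 0.18, adjusted p = 0.386).

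The beta sum of these CA1 PN libraries was 318 CPM ± 23.9 (295 to 347) in 2N and 215 CPM ± 21.5 (195 to 244) in Ts, with no overlap, against 270 CPM ± 77.8 and 205 CPM ± 28.8 over all libraries. It stayed lower in Ts on the TPM and library total scales, which were run on all libraries (log2 differences of -0.23 and -0.37). Higher in Ts were Pcdhac1 (5.21, 7.32, 9.69 and 13.6 CPM in 2N and 15.7, 17.4, 17.8 and 19.3 CPM in Ts, LFC 0.94 ± 0.33), Pcdhac2 (0.31 ± 0.14), Pcdha9 and Pcdhgb2. Leaving out the libraries of mice 17-21 and 17-154 alone gave 15 DEGs (27.3%, against 6.16% of all genes), 12 of them lower in Ts (21.8%, against 3.01%).

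On the supplemented diet 5 of 58 members were DEGs in CA1 PNs with all libraries, or 8.62% against 3.60% of all genes, and none passed adjustment, as 0.0490% of all genes did. Pcdhb10 (-0.91 ± 0.33), Pcdhga1 (-0.76 ± 0.25), Pcdhga8 (-0.51 ± 0.23) and Pcdhga10 (-0.41 ± 0.18) were lower in Ts and Pcdha7 (0.81 ± 0.38) was higher. Without the CA2 marker libraries it was 3 (5.17%, against 6.38% of all genes). These were Pcdhb2 (11.99, 17.2, 21.1 and 24.7 CPM in 2N and 3.05, 5.76, 8.02, 11.1 and 13.1 CPM in Ts, LFC -1.07 ± 0.32, adjusted p = 0.228), Pcdhb12 and Pcdhga2 (-0.37 ± 0.17).

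Over both diets, with all CA1 PN libraries 9 of 58 were DEGs (15.5%, against 4.90% of all genes), 7 lower and 2 higher, and none passed adjustment, as 0.173% of all genes did. Without the 10 libraries 23 of 58 were DEGs, 17 lower and 6 higher. That is 39.7%, against 7.91% of all genes, and 29.3% lower against 3.11%. Pcdhb2 then had an adjusted p under 0.05 (LFC -1.04 ± 0.22, adjusted p = 0.00244), and Pcdhga2 was at -0.45 ± 0.12 (0.0763).

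**Figure D5:**
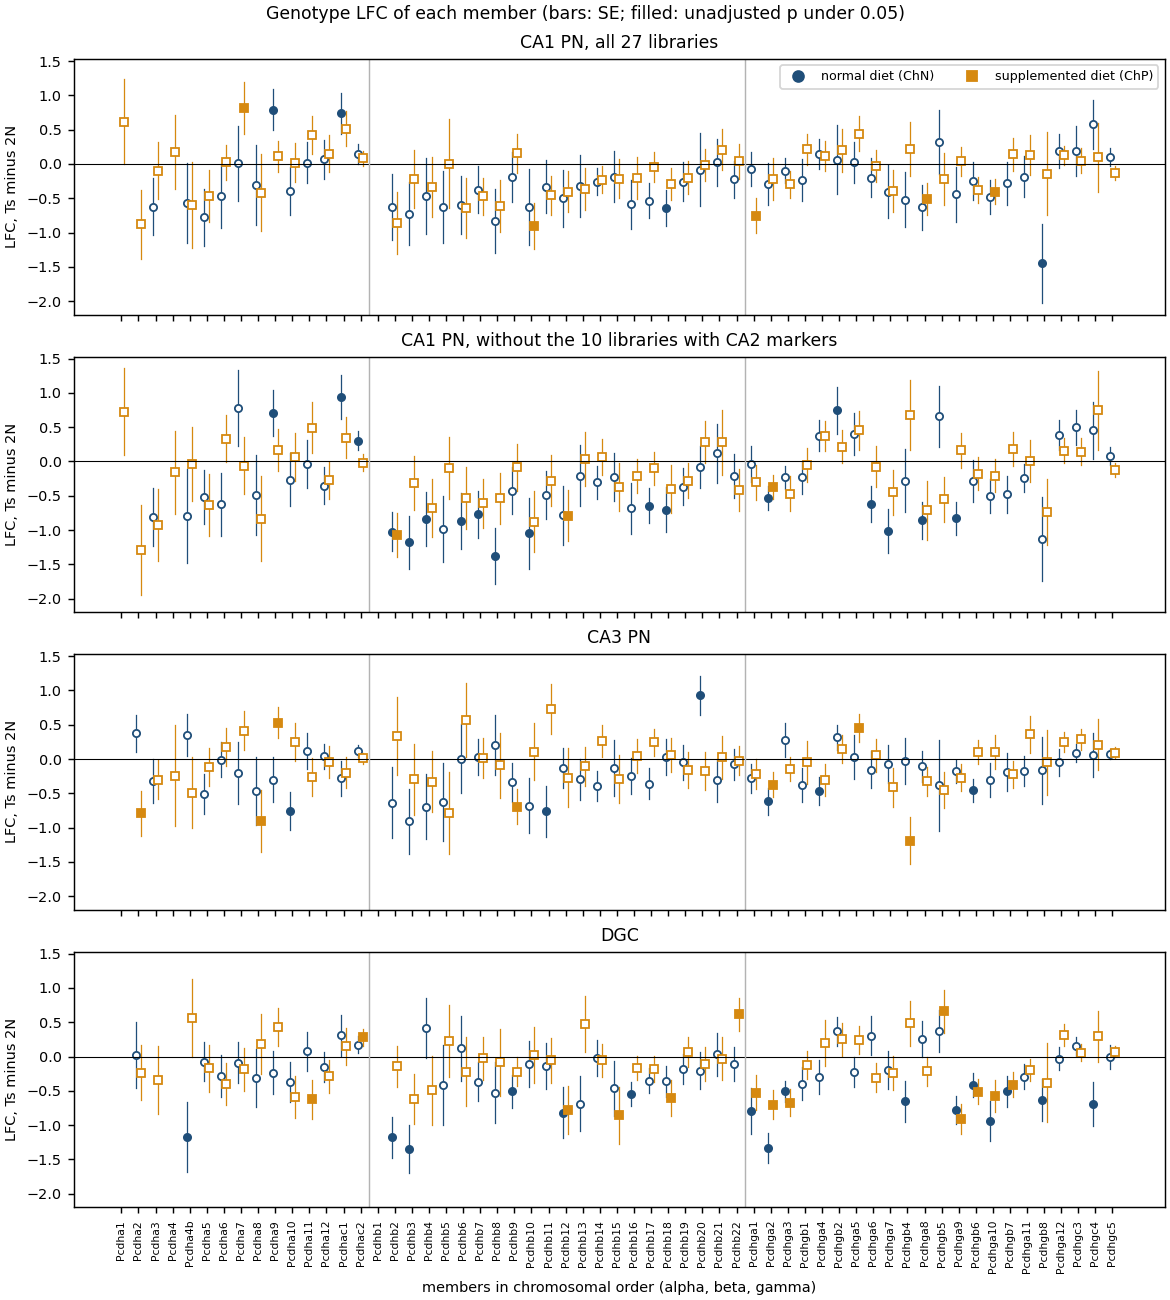
Genotype LFC (Ts minus 2N) of each member in chromosomal order, with circles for the normal and squares for the supplemented diet, in CA1 PNs with all 27 libraries, CA1 PNs without the 10 libraries with CA2 markers, CA3 PNs and DGCs (1 panel each; bars are SE, filled points have an unadjusted p under 0.05). In DGCs Pcdhga2 (-1.33 and -0.70 on the normal and supplemented diet) and Pcdhga9 (-0.77 and -0.91) are among the 8 members with filled points below 0 on both diets.

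CA3 PNs had a share of DEGs close to that of all genes on the normal diet. There, 6 of 56 members tested were DEGs, or 10.7% against 9.20% of all genes, and none had an adjusted p under 0.05, as 0.662% of all genes did. Pcdhga2 was among them, at 22.01, 29.3 and 39.4 CPM in 2N and 12.3, 17.9 and 29.5 CPM in Ts (LFC -0.62 ± 0.20, adjusted p = 0.208), with overlapping groups. Pcdhgb6 (-0.46 ± 0.17), Pcdhga4, Pcdha10 and Pcdhb11 were lower too and Pcdhb20 higher (0.93 ± 0.28, adjusted p = 0.154). On the supplemented diet 7 of 57 were DEGs (12.3%, against 4.99% of all genes), 5 lower and 2 higher, and none passed adjustment, as 0.249% of all genes did.

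Cell markers differed in both directions in Ts CA3 PNs on the normal diet, with several inhibitory neuron and astrocyte markers lower. Higher DEGs were the oligodendrocyte marker Olig1 (0.73 ± 0.28, and 0.54 ± 0.21 over both diets) and the CA2 marker Amigo2 (0.59 ± 0.29). The excitatory neuron marker Neurod2 (-0.23 ± 0.09), the CA3 marker Bok (-0.23 ± 0.11) and the CA1 marker Mpped1 (-0.95 ± 0.39) were lower DEGs. The 7 inhibitory neuron markers had a median library mean of 4.61 (3.58 to 4.89) in 2N ChN and 3.75 (3.43 to 3.88) in Ts ChN on the log2(CPM + 1) scale, and 5 of the 7 were lower DEGs. Sst, the somatostatin gene of a class of interneurons, was at an LFC of -1.87 ± 0.40 (adjusted p = 0.0932), and Gad2 and Gad1, which make GABA, were at -0.73 ± 0.22 and -0.43 ± 0.13. The 6 astrocyte markers were at 4.80 (4.16 to 5.08) and 4.53 (4.19 to 4.64), and Sox9 (-0.82 ± 0.31), Gfap (-0.55 ± 0.21), Aqp4 (-0.42 ± 0.20) and Gja1 (-0.40 ± 0.16) were lower DEGs. No marker of either list was at 0 in all libraries of a group. On the supplemented diet 1 of 6 inhibitory neuron markers tested and 0 of 6 astrocyte markers were lower DEGs, and over both diets Sst had an adjusted p under 0.05 (-1.12 ± 0.26, adjusted p = 0.0464). Their part in the CA3 PN protocadherin differences was not tested.

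Pcdhga2 was the 1 member lower in Ts CA3 PNs on both diets (20.0% of the 5 lower on each, again without the share of all genes). Its LFC on the supplemented diet was -0.37 ± 0.18 (19.8, 28.5 and 37.7 CPM in 2N and 11.1, 22.4 and 29.4 CPM in Ts, where 11.1 CPM was the library with dentate markers). Over both diets 5 of 58 members were DEGs (8.62%, against 8.09% of all genes), all lower, and none passed adjustment, as 0.676% of all genes did. Pcdhga2 was at -0.49 ± 0.14 (adjusted p = 0.0682). The CA3 PN beta sum was 184 CPM ± 22.7 in 2N and 157 CPM ± 21.6 in Ts on the normal diet and 168 CPM ± 20.6 and 164 CPM ± 14.3 on the supplemented diet, overlapping on both. No C-type member was a DEG in CA3 PNs on either diet, and Pcdhac2 had medians of 194 and 200 CPM in 2N and Ts ChN.

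The genotype LFC was also compared between populations, on the normal diet in 1 model of 59 members. None had an adjusted p under 0.05 by edgeR. An unadjusted p under 0.05 was found for 2 between CA1 and CA3 PNs (3.39%, against 4.22% of all genes). It was found for 3 between DGCs and CA1 PNs (5.08%, against 5.51%) and 3 between DGCs and CA3 PNs (5.08%, against 5.18%). With all libraries no share of members was thus above that of all genes. Pcdhga2 was among those for CA1 PNs and DGCs, with an LFC that was 1.05 ± 0.38 higher in CA1 PNs than in DGCs (adjusted p = 0.817). Pcdhgc4 and Pcdha9 were the others of that pair. Between CA1 and CA3 PNs the members were Pcdhac1 and Pcdha9 (1.06 ± 0.42 and 1.12 ± 0.44). For CA3 PNs against DGCs they were Pcdhga3 (0.76 ± 0.27), Pcdhb20 and Pcdha4b. Without the CA2 marker libraries the 3 counts were 7 (11.9%, against 5.07% of all genes), 4 (6.78%, against 6.22%) and 5 (8.47%, against 6.66%).

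For maternal choline, no member had an adjusted p under 0.05 for diet in any population or genotype by edgeR. Counts with an unadjusted p under 0.05, each of 58 members, were 0 in 2N CA1 PNs (3.27% of all genes) and 0 in Ts CA1 PNs (3.05%). They were 3 (5.17%, against 5.70% of all genes) and 1 (1.72%, against 3.69%) without the CA2 marker libraries. In CA3 PNs there were 6 in 2N (10.3%, against 4.90% of all genes) and 6 in Ts (10.3%, against 4.19%), and in DGCs 4 in 2N (6.90%, against 5.82%) and 6 in Ts (10.3%, against 3.81%). In 2N DGCs the 4 were lower on the supplemented diet: Pcdhgc4 (8.69 CPM median on the normal and 7.42 on the supplemented diet, LFC -0.87 ± 0.37), Pcdhgb4, Pcdha1 and Pcdha4b. In Ts DGCs Pcdhga2 was higher on the supplemented diet (9.61, 12.3 and 14.1 CPM against 3.95, 14.6 and 28.1 CPM, LFC 0.52 ± 0.23, adjusted p = 0.999), as was Pcdha9, and Pcdhga3 (-0.47 ± 0.18), Pcdhb18, Pcdha12 and Pcdhga6 were lower. The 2 groups of Pcdhga2 overlapped on both sides, since the supplemented group also held the lowest value.

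In 2N CA3 PNs, Pcdhb20, Pcdhga7 and Pcdhgb4 were higher and Pcdhb11, Pcdha10 and Pcdhb14 lower on the supplemented diet. In Ts CA3 PNs, Pcdhgb6 (0.42 ± 0.18), Pcdha5, Pcdhga5 and Pcdha9 were higher and Pcdha2 and Pcdhga3 lower. The difference in genotype LFC between diets was tested as an interaction, with no adjusted p under 0.05 by edgeR. Members with an unadjusted p under 0.05 numbered 0 of 58 for CA1 PNs (3.22% of all genes), or 3 without the CA2 marker libraries (5.17%, against 5.22%). They numbered 8 of 58 for CA3 PNs (13.8%, against 4.87% of all genes) and 7 of 58 for DGCs (12.1%, against 3.97%). In DGCs all 7 had a higher LFC on the supplemented diet, Pcdhga2 (0.63 ± 0.31) and Pcdhb2 (1.03 ± 0.42) among them. Beta sums of 2N DGCs were 287 CPM ± 23.1 on the normal and 236 CPM ± 28.9 on the supplemented diet, with overlap, and those of Ts DGCs 223 CPM ± 25.4 and 215 CPM ± 28.2.

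The genes that act on or with these proteins showed no genotype or diet call after adjustment in lists chosen for their known roles. Their DEGs in DGCs are set against 8.50% of all genes on the normal diet, 7.60% on the supplemented diet and 10.5% over both. A list of 12 genes held cohesin, CTCF, which shape the promoter choice, and related factors. Of these, 0 were DEGs for genotype in DGCs on the normal diet and 1 was lower on the supplemented diet. That gene was Zfp143 (LFC -0.80 ± 0.25, adjusted p = 0.170), which is neither CTCF nor a cohesin gene. Of 10 genes of DNA methylation and silencing, 1 of 8 tested was lower in Ts DGCs on the normal diet and 0 of 9 were DEGs on the supplemented diet. Of 15 cytoplasmic partners, 0 and 2 were DEGs, and over both diets 6 were (40.0%, against 10.5% of all genes), 1 higher and 5 lower (33.3%, against 4.22%). Of 12 non-clustered protocadherins, single genes outside the arrays, 10 were tested in DGCs and 1 was higher and 1 lower on the normal diet, and 2 were lower on the supplemented diet.

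The genes next to or between the arrays were counted the same way. The gene models of Gm38666 and Gm37388, like that of Pcdha4b, run from the alpha into the gamma array. Their symbols lie outside the rule, so they are counted here and not among the members. Of 41 protein-coding genes between the clusters or within 1 Mb of them, 31 were tested in DGCs on the normal diet, with 1 higher and 1 lower DEG and a median LFC of 0.09, where the members had a median of -0.29. On the supplemented diet 30 were tested, again with 1 higher and 1 lower and a median of 0.07.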

How the data were processed

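RNA of laser-captured neurons was sequenced in 81 libraries. The submitters' processing notes name FastQC 0.11.9, Trimmomatic 0.39, Picard 2.26.2, STAR and RSEM and the builds GRCm39 and mm10. The study used the Gencode annotation of GRCm39. The authors deposited RSEM expected counts per gene, and TPM per library. Expected counts were rounded to whole numbers before testing.

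Genes with more than 0.1 CPM in at least 10 of the libraries fitted were tested with edgeR 4.0.16 (quasi-likelihood, TMM, robust; R 4.3.3), with Benjamini-Hochberg adjustment over all genes tested. Genotype was fitted per population and diet, and populations in 2N ChN libraries. The study's covariates (RNA concentration and read percentages) were not used here. Fold changes of the edgeR fits carry the default prior count of that package. The SE of these fits is the absolute LFC divided by the square root of the F statistic, not a value returned by the fit. Cluster sums are sums of TMM-scaled CPM, described by mean, SD and range with no test. Replicates are separate mice. The numbers in library names are mice. All but mouse 17-192 (no CA1 PN library) and mice 15-198 and 16-272 (no CA3 PN library) gave all 3 populations. Population comparisons are thus paired in 2N libraries, and only in part where Ts libraries enter. Deviations from group means correlated at a median of 0.0658 over 78 same-mouse pairs and -0.0128 over 480 other pairs. Fits were tested on simulated data.

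Alternatives were DESeq2 1.42.0, limma-voom (limma 3.58.1), library totals, no filter, the label of library 15-145-CA3, both diets or 2 groups in 1 fit, a replicate block, other groups and leaving out each library. Leaving out CA1 libraries, averaging over diets and leaving out Pcdha4b were added after seeing the data. Members and gene lists were chosen with earlier results of these data known. Named members were those with an adjusted p under 0.05 for genotype, diet or interaction, DEGs of genotype on the normal diet in 2 or 3 populations, the C-type members, the 2 with the highest median TPM per cluster and population, and the 3 higher and 3 lower with the smallest p per pair of populations. Other members are named as those a count holds, after their values were seen. Counting error alone limits members at a few CPM, since libraries held 445 to 5000 member counts.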

Additional observations from a re-analysis of the deposited data

Results flagged for a closer look

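For the 3 cluster sums and 11 single members, each of the 12 groups was checked for a library far from the rest of its group, and 9 of 168 groups held one. Chance alone flags about 1 in 20 groups. The alpha sum was 316 CPM in the CA1 PN library of Ts ChP mouse 16-272, which has CA2 markers, against 228 to 270 CPM in the others. Pcdhac2 was at 30.9 CPM in the DGC library of 2N ChP mouse 16-273, against 55.0 to 69.7 CPM. Pcdhgc5 was at 338 CPM in the CA1 PN library of Ts ChN mouse 17-173, against 276 to 291 CPM, and at 239 CPM in the DGC library of Ts ChP mouse 15-199, against 185 to 204 CPM. Pcdhga2 was at 47.0 CPM in the DGC library of 2N ChP mouse 15-336, against 21.3 to 30.8 CPM. Pcdhga9 was at 28.3 CPM in the DGC library of Ts ChP mouse 16-206, against 8.17 to 18.3 CPM. Pcdhgb6 was at 10.1 CPM in the CA1 PN library of 2N ChP mouse 15-296, against 31.5 to 43.7 CPM, and at 35.2 CPM in the CA3 PN library of mouse 15-145, taken as 2N ChN, against 25.1 to 28.4 CPM. Pcdhgb8 was at 13.2 CPM in the CA3 PN library of 2N ChP mouse 16-90, against 1.40 to 3.496 CPM.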

How the results depend on the processing

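Of 157 recomputed counts of members called, 124 stayed within 1.5 times the reported count and 33 did not, the cause of which was not tested where no construction shows it. Leaving out the 10 CA1 PN libraries with CA2 markers, or those of mice 17-21 and 17-154 (both chosen after seeing the data), moved the CA1 PN genotype count from 4 to 18 and 15 on the normal diet, from 9 to 23 and 21 over both diets, and CA1 minus CA3 PNs from 11 to 19 and 19 and CA1 PNs minus DGCs from 9 to 14 and 14. The same steps gave 3 and 3 for CA1 diet in 2N, 3 and 2 for the CA1 interaction, and 7 and 7 for the genotype difference between CA1 and CA3 PNs. Leaving out the 10 also gave 3 for CA1 genotype on the supplemented diet, 1 for CA1 diet in Ts and 5 for the difference between CA3 PNs and DGCs. With no filter the CA1 genotype counts were 7 and 8, CA1 diet in Ts and the CA1 interaction 1 each, and the difference between CA1 and CA3 PNs 4. Library totals gave 1 for CA1 diet in 2N and for the CA1 interaction and 3 for DGC diet in Ts. limma-voom gave 1 for CA1 diet in Ts, 2 for the CA1 interaction, 4 for the difference between CA1 and CA3 PNs and 1 for that between CA3 PNs and DGCs. The label of 15-145-CA3 also gave 4 for the first of these differences, both diets in 1 fit gave 4 for CA3 genotype on the supplemented diet, 2 groups only gave 1 for CA1 diet in Ts, and DESeq2 gave 4 for the DGC interaction. For genotype in DGCs, other settings gave 12 to 17 on the normal diet, 11 to 16 on the supplemented diet and 16 to 22 over both.

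With 1 library left out at a time, members called ranged from 9 to 15 and 9 to 15 for DGC genotype on the normal and supplemented diet and 16 to 19 over both, 3 to 9, 2 to 8 and 7 to 13 in CA1 PNs, and 4 to 7, 4 to 9 and 3 to 7 in CA3 PNs. For diet in 2N and Ts they ranged from 0 to 2 and 0 to 1 in CA1 PNs, 3 to 7 and 3 to 6 in CA3 PNs, and 2 to 6 and 3 to 7 in DGCs, and for the interaction from 0 to 2, 5 to 9 and 3 to 8. Between populations they ranged from 7 to 15 (CA1 and CA3 PNs), 5 to 10 (CA1 PNs and DGCs) and 13 to 16 (CA3 PNs and DGCs), and for genotype differences between them from 2 to 5, 2 to 6 and 1 to 5. Single libraries that moved a genotype or population count by over 1.5 times were, besides those in DGCs named with the results, CA1 PN libraries of mice 17-154 (9), 16-273 (2) and 14-90 (8), CA3 PN libraries of 15-36 (4 on the supplemented diet) and of 17-154, 15-269 and 15-336 (3 each over both diets), those of 17-172 (CA1) and 15-147 (CA3) for CA1 minus CA3 PNs (7 each) and of 17-56 for CA1 PNs minus DGCs (5). The interaction in DGCs was at 3 without 16-490 and 4 without 17-56 or 15-334, and in CA3 PNs at 5 without 15-245. Diet counts were at 3 without 17-154 (CA3, 2N), 15-36 (CA3, Ts) or 15-198 (DGC, Ts) and 2 without 17-21 or 15-269 (DGC, 2N).

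With the mouse as a replicate block, which the pairing allows between populations, 13, 8 and 15 members were called for CA1 minus CA3 PNs, CA1 PNs minus DGCs and CA3 PNs minus DGCs, and 2, 4 and 4 for the genotype differences. Of the named members, Pcdhb8 (0.97, CA1 PNs minus DGCs) and Pcdhga8 (0.68 and 0.79, CA1 PNs minus CA3 PNs and DGCs) lost the call and Pcdhgb6 (-0.43, CA3 PNs minus DGCs) and Pcdhgc3 (-0.64 and -0.67, CA1 PNs minus CA3 PNs and DGCs) gained it.

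Of 138 recomputed cluster sum differences 108 moved by less than the spread between libraries, as did all 594 with 1 library left out. By deposited TPM the log2 differences for genotype were 0.22 (alpha) and 0.30 (gamma) in CA1 PNs on the normal and -0.12 and -0.36 on the supplemented diet, 0.15, -0.025 (beta) and 0.16 in CA3 PNs on the normal diet and 0.14 (gamma) on the supplemented, and in DGCs -0.21 (alpha) and -0.54 (beta) on the normal and -0.17 (alpha) on the supplemented diet. For diet they were 0.19 (gamma, CA1, 2N), -0.38, -0.40 and -0.47 (alpha, beta and gamma, CA1, Ts), and 0.21 and 0.095 (alpha and gamma, CA3, 2N). Between populations they were -0.69 and -0.20 (alpha and gamma, CA1 minus CA3 PNs), -0.18, -0.54 and -0.33 (alpha, beta and gamma, CA1 PNs minus DGCs) and 0.51, -0.93 and -0.13 (CA3 PNs minus DGCs). By library totals they were 0.19 and 0.042 (alpha and gamma, CA1 PNs minus DGCs) and 0.61, -0.87 and -0.20 (CA3 PNs minus DGCs). In other groups 6 member differences between populations or genotypes changed sign against their reported value: in Ts ChN, Pcdha4b (1.07) and Pcdhga2 (0.65) for CA3 PNs minus DGCs and Pcdha9 (0.998) and Pcdhga8 (-0.046) for CA1 PNs minus DGCs, and in Ts ChP, Pcdhb18 (-0.22) for CA1 minus CA3 PNs and Pcdhga9 (0.80) for CA1 PNs minus DGCs.

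Depth limits the single members most, as many were at a few CPM in libraries of 358355 counts or more, and a member under the threshold was not shown to be equal between groups. The shared exons limit single alpha and gamma members.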
